A study of Mus musculus with 32 samples.

Results

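The insulin-like growth factor genes described here are Igf1, its receptor Igf1r, the scavenging receptor Igf2r and 6 IGF-binding protein genes, Igfbp2 to Igfbp7. They were chosen by gene symbol, whatever their values, and are 9 of the 20560 genes in the deposited table. The 32 RNA-seq libraries come from 3T3-L1, a line of mouse preadipocytes, which store fat after hormone treatment. In the knockdown cells 2 short hairpin RNAs (shRNAs) targeted Zbtb9, whose product has zinc fingers and a BTB domain, and control cells carried a scramble shRNA (shCtrl, genotype label WT). The design text sets knockdown against control cells at each time point of adipogenesis.

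Each of days 0, 3, 7 and 11 had 4 control libraries, 2 libraries of shRNA 1 and 2 of shRNA 2. All cells received the same differentiation treatment. It began at day 0, after confluence, with 1 µM dexamethasone (a glucocorticoid), 0.5 mM isobutylmethylxanthine (which raises cyclic AMP) and 167 nM insulin. Insulin was the single agent kept after day 3, and none was given after day 7. The labels call day 0 cells preadipocytes, day 3 and day 7 cells premature adipocytes and day 11 cells mature adipocytes. How the shRNAs were delivered, and whether each line is a pool or a clone, is not given in the sources used here. Replicates are numbered as biological replicates without a statement on what was repeated, so p-values measure the spread between these libraries, which may be technical.

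IGF1 is a secreted growth factor that binds a receptor tyrosine kinase, the product of Igf1r, and so activates phosphoinositide 3-kinase and MAP kinase signalling. IGF2R takes up IGF2 for degradation in lysosomes and carries lysosomal enzymes. IGF-binding proteins hold IGFs in the extracellular space, where they can block or prolong their action, and proteases release the bound IGF. In preadipocytes, IGF1 and high insulin both drive differentiation through this receptor pathway.

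Libraries held about 22280000 to 31070000 reads in genes. Zbtb9 itself had few reads, and its mean in knockdown libraries was 61.9%, 50.6%, 42.7% and 54.5% of the control mean at days 0, 3, 7 and 11. On the deposited log2 scale the Zbtb9 difference was called at day 7 alone (-0.35, adjusted p 0.0288). It was -0.21 at day 0 and -0.28 at day 11, not called, and Zbtb9 was under the filter at day 3. The day 11 mean covers shRNAs that lay apart, at 8 and 17 reads with shRNA 1, 2 and 4 with shRNA 2 and 13 to 22 in controls. The library labelled shRNA 1 replicate 2 of day 11 (log2 value 3.66, controls 3.44 to 3.69) thus showed no reduction of Zbtb9. Without it the Zbtb9 difference at day 11 was -0.42 (adjusted p 0.0323), and of the 7 genes tested below only Igf1 changed its call between knockdown and control (given there). At day 3, shRNA 1 replicate 2 (7 reads) and shRNA 2 replicate 1 (9 reads) also lay among the controls (6 to 12 reads). The annotation places 84.4% of the exon bases of Zbtb9 in same-strand overlap with neighbouring genes, so its reads may be shared. Adipocyte markers were read from a list of 12 genes. Their mean log2 value was 5.89 in knockdown and 5.85 in control libraries at day 0, 8.84 and 7.90 at day 3, 11.81 and 10.12 at day 7, and 11.17 and 9.60 at day 11. Means over 10 preadipocyte and fibroblast markers were 12.03 and 12.29, 11.59 and 11.90, 11.78 and 12.23, and 11.94 and 12.44. Of 5 macrophage and leukocyte markers, Ptprc was at or under 3 reads in each library, and the 5 summed to 24.3 to 649.5 normalized reads. At day 11 their mean log2 value was higher in all knockdown libraries (2.97 to 3.22 against 2.83 to 2.93), with 1 of 3 tested called higher, and the part of this in the day 11 results was not tested. Endothelial markers (5 genes) summed to 9.88 to 100.1 normalized reads and had lower means in all knockdown libraries at day 0 (2.03 to 2.09 against 2.14 to 2.23) and at day 11 (2.12 ± 0.06 against 2.24 ± 0.04, SD, n = 4), likewise not tested as a part of the results. The 4 epithelial markers summed to at most 26.1 normalized reads, with Epcam and Krt14 at or under 3 reads in each library. In these bulk samples, fewer cells of a type and less RNA per cell cannot be told apart.

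Values below are log2 expression values as deposited, and differences are on that log2 scale. Folds and levels relative to control or to day 0 are 2 raised to such a difference. The deposited values understate differences in reads, and not only for genes with few reads. On simulated day 7 reads the estimated difference had a median of 0.91 of the true size for changes of 1, and 0.90 for changes of 0.5. Genes were tested where at least 4 libraries of the comparison had a value whose linear form (2 raised to the value) was at least 10. A difference counts as called where limma gave an adjusted p under 0.05, with Benjamini-Hochberg adjustment over all genes tested. Of the 9 genes, 7 passed this filter in each comparison, and Igfbp2 and Igfbp5 did not. Between knockdown and control, 1 of the 7 was called at day 0, where 3.25% of all genes tested were called. At day 3 it was 2 of 7, with 26.7% of all genes called. At day 7 it was 6 of 7, with 47.6% of all genes called, and at day 11 it was 3 of 7, with 33.0%. The median difference of the 7 genes was -0.08, 0.04, -0.15 and 0.10 at the 4 days, and that of all genes tested lay between -0.01 and 0.01. In control cells, 7 of 7 changed from day 0 to day 3 (76.6% of all genes), 6 of 7 from day 0 to day 7 (69.1%) and 7 of 7 from day 0 to day 11 (64.6%). The 7 were called also from day 3 to day 7 (74.2%) and from day 7 to day 11 (55.0%).

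**Figure D1:**
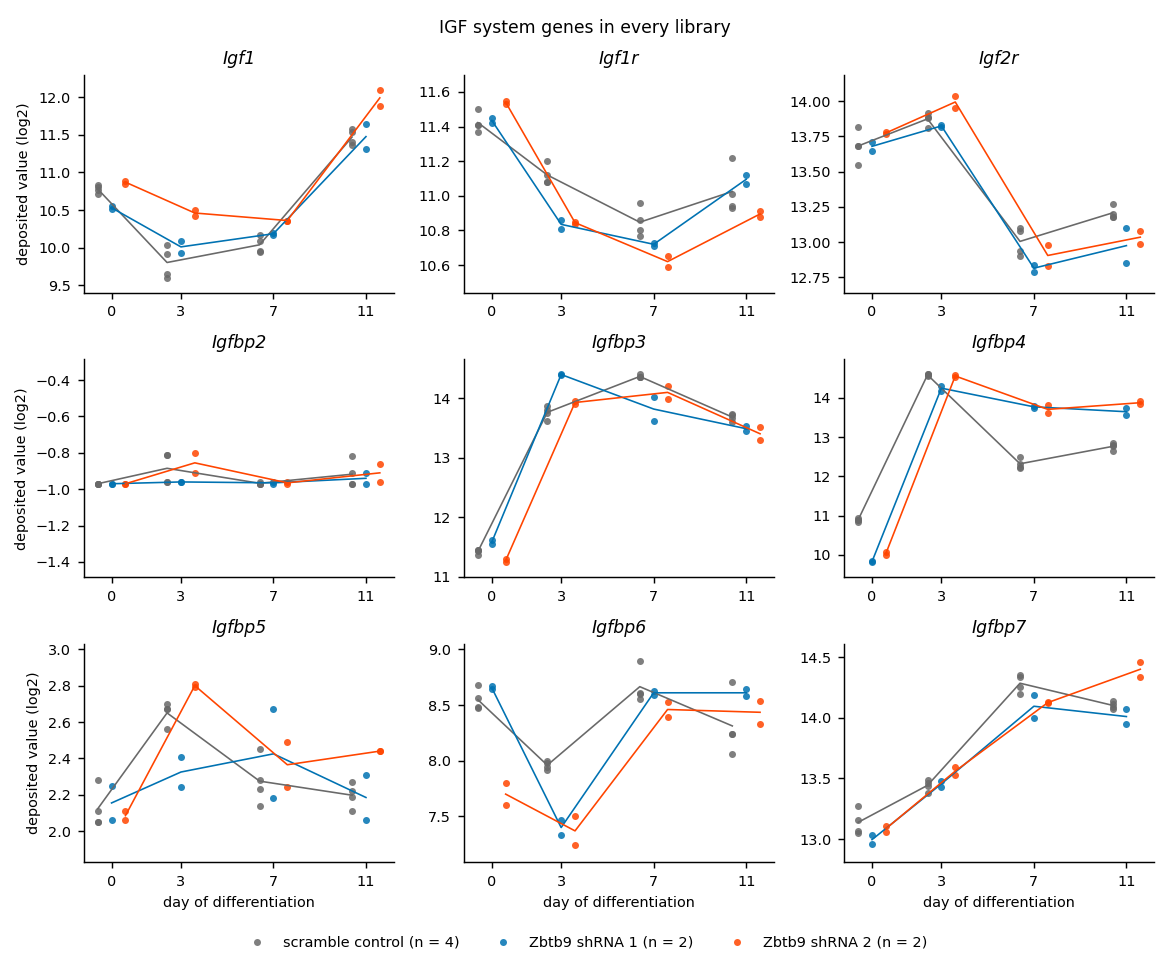
Deposited log2 value (vertical axis) of the 9 genes against day of differentiation (horizontal axis) in each of 32 libraries. Points are libraries, lines join group means and points of the 3 groups are shifted sideways for legibility. Igfbp4 in control cells goes from 10.89 at day 0 to 14.58 at day 3 and 12.32 at day 7, while knockdown libraries stay between 13.60 and 13.81 at day 7.

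Igfbp4 (ENSMUSG00000017493) encodes a secreted binding protein that holds IGFs away from their receptor until the protease PAPPA cuts it. The gene occupies bases 99041244 to 99054392 of chromosome 11 on the plus strand (GRCm38) and has 8 exon blocks. Igfbp3 (ENSMUSG00000020427) encodes the main IGF carrier of blood plasma and lies on the same chromosome from 7206086 to 7213923, minus strand, 3540 bases from Igfbp1. The 250 bases before each annotated start are shown because these 2 genes rose together from day 0 to day 3 in control cells and then differed from control in opposite directions under knockdown. Both sequences come from RefSeq, build GRCm38.p6, and run 5′ to 3′ on the gene's strand, with matches to the searched motifs in capitals. They cover chr11:99040994-99041243 (plus strand) for Igfbp4 and chr11:7213924-7214173 (minus strand) for Igfbp3.
Igfbp4: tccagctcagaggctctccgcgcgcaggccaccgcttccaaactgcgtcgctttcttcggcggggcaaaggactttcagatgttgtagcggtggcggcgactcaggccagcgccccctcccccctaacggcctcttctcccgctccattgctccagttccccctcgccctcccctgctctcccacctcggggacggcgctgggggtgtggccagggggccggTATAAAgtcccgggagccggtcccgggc
Igfbp3: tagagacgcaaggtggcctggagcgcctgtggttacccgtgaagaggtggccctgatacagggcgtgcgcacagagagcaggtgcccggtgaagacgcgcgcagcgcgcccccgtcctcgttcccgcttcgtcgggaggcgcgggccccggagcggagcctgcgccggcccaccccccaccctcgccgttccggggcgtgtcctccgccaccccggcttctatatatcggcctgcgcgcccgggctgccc

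The motifs searched on both strands of a window of 300 bases, the last 50 of them after the start, were TATAAA (the TATA box), CCAAT (the CCAAT box), GGGCGG (the GC box) and TTGCNNAA (the C/EBP site). Among 32851 promoter windows of that length, 13.6%, 37.4%, 35.7% and 10.8% held them. None of these motifs contains another. Igfbp4 had a TATAAA match that starts 28 bases before the annotated start, and the Igfbp3 window had no exact match to any of the 4. Variants of TATAAA were not searched, and the printed Igfbp3 sequence holds the letters tatatat close to its end. The search therefore cannot tell whether Igfbp3 and Igfbp4 differ in having a TATA box. Of the 250 bases, 69.2% in Igfbp4 and 73.2% in Igfbp3 were G or C, against a median of 52.4% over all windows. A RefSeq window was found for all 9 genes, and a match is a description of letters and not of a bound site.

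Among the 7 genes tested, Igfbp4 had the largest knockdown differences at days 0, 7 and 11, though not at day 3, and their direction at day 0 was opposite to that at days 7 and 11. At day 0 its values were 10.94, 10.88, 10.90 and 10.84 in control libraries, 9.85 and 9.81 with shRNA 1 and 10.07 and 10.00 with shRNA 2. All 4 knockdown libraries were below all 4 controls. The difference was -0.96 (SE 0.06, limma adjusted p 9.04e-05), and the knockdown level was 0.515 of control. Igfbp4 was the single one of the 7 genes called at this day. Adipocyte marker means differed by little at this day, but 6 of the 12 markers in control and 7 in knockdown cells were at or under 3 reads in each library. Their summed normalized reads were 21961 to 23559 in knockdown and 19722 to 20319 in control libraries. The preadipocyte and fibroblast marker mean was lower in knockdown libraries (11.93 to 12.12 against 12.26 to 12.32). The part of either in the result was not tested.

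At day 3 Igfbp4 stood at its highest in control cells, at 14.60, 14.60, 14.56 and 14.57, and in knockdown cells it was at 14.18 and 14.31 (shRNA 1) and 14.53 and 14.58 (shRNA 2). The shRNA 1 libraries were below the controls, and those of shRNA 2 lay within or just under the control range. The difference of -0.19 (SE 0.07, adjusted p 0.0869) was not called by limma. Leaving out shRNA 2 replicate 1 gave -0.23 (adjusted p 0.0429) and leaving out replicate 2 gave -0.24 (adjusted p 0.0125). With the shRNAs fitted as separate groups it was also called (adjusted p 8.09e-06). Here and below, that fit leaves the difference between the shRNAs out of the error. Its p-values measure only the spread of libraries within each shRNA and within controls, and cannot show an effect common to both shRNAs.

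At day 7 the order was reversed. Control libraries were at 12.25, 12.31, 12.50 and 12.22, and knockdown libraries at 13.79 and 13.75 (shRNA 1) and 13.60 and 13.81 (shRNA 2). No knockdown library came near a control library. Igfbp4 was 1.42 higher on the log2 scale (SE 0.06, adjusted p 3.03e-10), a 2.67-fold level. By day 11 the control values were 12.79, 12.76, 12.65 and 12.85 and the knockdown values 13.73, 13.56, 13.83 and 13.92. The groups again did not overlap, with a difference of 1.00 (SE 0.08, adjusted p 3.60e-06). Adipocyte marker means were also higher in all knockdown libraries at these days (11.61 to 11.92 against 10.06 to 10.21 at day 7, and 10.99 to 11.31 against 9.49 to 9.77 at day 11). Their part in the Igfbp4 difference, and in the other calls of these days, was not tested.

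The change of the Igfbp4 difference between days was itself called in the fit of all 32 libraries. Against day 0, the difference had moved by 0.77 at day 3 (SE 0.11, adjusted p 1.73e-05), by 2.37 at day 7 (SE 0.11, adjusted p 8.67e-17) and by 1.95 at day 11 (SE 0.11, adjusted p 9.07e-15). Of the 7 genes, 2, 3 and 2 were called in these 3 comparisons, where 6.57%, 29.9% and 23.2% of all genes were. These shares do not apply to the fit with the shRNAs as separate groups, which called more of all genes at days 3 and 11 (counts given below). In that fit, 8 more changes from day 0 were called for the 7 genes, with adjusted p of 5.08e-04 to 0.0407. They were those of Igf1 at days 3, 7 and 11, of Igfbp3 at days 3 and 11, of Igf2r at day 7 and of Igfbp6 and Igfbp7 at day 11. Of these, the Igf2r change was also called with libraries scaled to equal totals (0.0191), by voom (0.0176) and without any of 3 libraries, the Igfbp6 change without any of 4, and those of Igf1 at days 3 and 11, Igfbp3 at day 3 and Igfbp7 at day 11 without 1 library each. In control cells Igfbp4 rose by 3.70 from day 0 to day 3 (SE 0.05, adjusted p 6.02e-34), which is a 12.96-fold level, and dropped by 2.26 from day 3 to day 7 (SE 0.05, adjusted p 8.37e-28). In knockdown cells the mean went from 9.93 to 14.40, 13.74 and 13.76 over the 4 days.

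**Figure D2:**
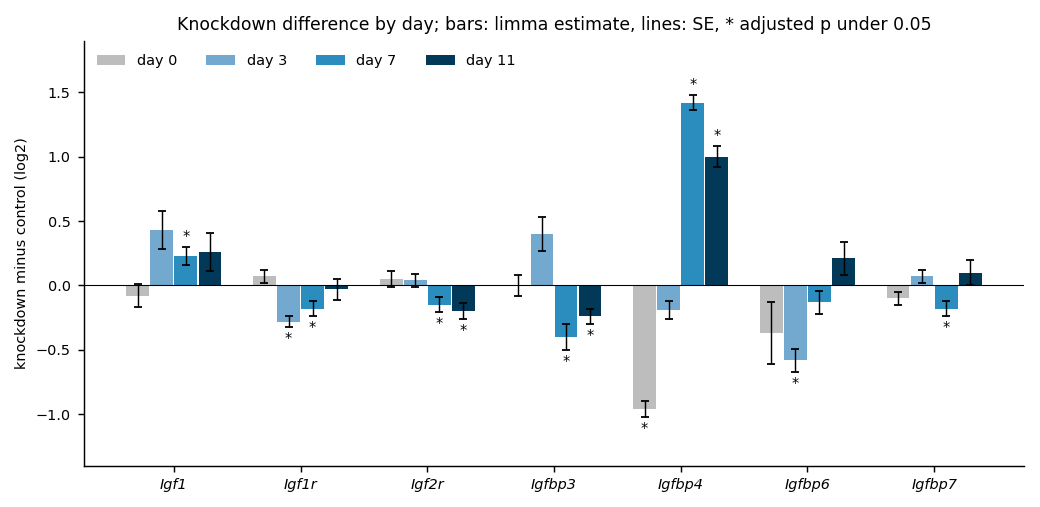
Knockdown minus control difference (log2, vertical axis) of the 7 genes tested, 1 bar per day, with 4 knockdown and 4 control libraries each. Bars are limma estimates, lines are 1 standard error either way and stars mark adjusted p under 0.05. The Igfbp4 bars go from -0.96 at day 0 to 1.42 at day 7, and the next largest in size is the -0.58 of Igfbp6 at day 3.

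Igfbp3 differed from control in the other direction at days 7 and 11. At day 7 control libraries were at 14.35, 14.35, 14.35 and 14.40, and knockdown libraries at 14.02 and 13.61 (shRNA 1) and 14.21 and 13.98 (shRNA 2). All knockdown libraries were lower, with replicate 2 of shRNA 1 the lowest. The interferon response mean over 12 genes was also lower in all of them (7.67 to 8.28 against 9.58 to 10.22). Adipocyte marker means were higher in all of them (11.61 to 11.92 against 10.06 to 10.21). Those of preadipocyte and fibroblast markers were lower (11.60 to 11.91 against 12.21 to 12.26). None of these was tested as a part of the result. Igfbp3 fell by 0.40 on the log2 scale (SE 0.10, limma adjusted p 0.00554). At day 11 control values were 13.67, 13.72, 13.73 and 13.60 and knockdown values 13.53, 13.44, 13.51 and 13.29. The groups did not overlap there either, and the difference was -0.24 (SE 0.06, adjusted p 0.0137). The day 11 call was lost in a single fit of all 32 libraries (adjusted p 0.0711).

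Before that, Igfbp3 stood at 11.37 to 11.45 in control and 11.24 to 11.61 in knockdown libraries of day 0, with a difference of 0.00 (SE 0.08, adjusted p 0.989). At day 3 the control libraries were at 13.62, 13.75, 13.80 and 13.87, those of shRNA 1 at 14.39 and 14.40 and those of shRNA 2 at 13.95 and 13.90. Each knockdown library stood above each control library, yet the difference of 0.40 (SE 0.13, adjusted p 0.0503) was not called. With a pseudocount of 1 its adjusted p was just under the threshold. The filter at 50 gave an adjusted p of 0.0409, limma without trend and robust fitting 0.0459, the fit of all 32 libraries 0.00571 and the shRNAs as separate groups 2.17e-09. Without shRNA 2 replicate 1 it was 0.0288, and without shRNA 2 replicate 2 it was 0.0242. The interferon response mean was 6.50 and 6.48 with shRNA 1, 5.91 and 5.89 with shRNA 2 and 5.83 to 5.93 in controls of day 3, and its part in the Igfbp3 values was not tested. The change of the knockdown difference from day 0 to day 7 was called for Igfbp3 (-0.41, SE 0.15, adjusted p 0.0371). That call was lost with no filter (0.0545) and without any of 9 of the 16 libraries involved, and it reached an adjusted p of 0.104 without shRNA 1 replicate 2 of day 7.

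In control cells Igfbp3 rose by 2.34 from day 0 to day 3 (SE 0.04, adjusted p 1.58e-32) and by a further 0.60 to day 7 (SE 0.04, adjusted p 2.10e-15). It then dropped by 0.68 to day 11 (SE 0.04, adjusted p 2.11e-16). Igfbp3 and Igfbp4 thus both rose from day 0 to day 3, and from day 3 to day 7 their levels moved in opposite directions in control cells.

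Igf1 (ENSMUSG00000020053), the ligand, lies on chromosome 10 from 87858265 to 87937042, plus strand. At day 7 its values were 10.09, 9.94, 9.95 and 10.17 in control libraries, 10.20 and 10.17 with shRNA 1 and 10.36 and 10.36 with shRNA 2. The highest control and the lowest knockdown library were nearly equal and did not overlap before rounding. Igf1 was 0.23 higher in knockdown cells (SE 0.07, limma adjusted p 0.011). The call was lost in the fit of all 32 libraries (adjusted p 0.152).

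At the other days the Igf1 difference was not called. Day 0 gave 10.71, 10.81, 10.83 and 10.77 in control libraries, with shRNA 1 lower (10.55 and 10.51) and shRNA 2 higher (10.85 and 10.89) than all of them. At day 3 the controls spread from 9.60 to 10.04, the shRNA 1 libraries were at 10.09 and 9.93 and the shRNA 2 libraries at 10.42 and 10.50. The day 3 difference was 0.43 (SE 0.15, adjusted p 0.0635), and it was called without shRNA 1 replicate 2 (0.53, adjusted p 0.0157) or without control replicate 4 (0.51, adjusted p 0.0398). It was also called in the fit of all 32 libraries (adjusted p 0.0186) and with the shRNAs as separate groups (adjusted p 0.00364).

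At day 11 Igf1 was at its highest in each group, at 11.57, 11.37, 11.40 and 11.54 in controls, 11.64 and 11.31 with shRNA 1 and 12.10 and 11.88 with shRNA 2. Replicate 1 of shRNA 1 and both shRNA 2 libraries were above all controls, and replicate 2 of shRNA 1 was below them. The difference was 0.26 (SE 0.15, adjusted p 0.221), and without shRNA 1 replicate 2 it was 0.41 (adjusted p 0.00847). The shRNAs as separate groups gave an adjusted p of 0.0173. In control cells Igf1 fell by 0.98 from day 0 to day 3 (SE 0.08, adjusted p 4.37e-09), with a level of 0.508 of day 0. From day 7 to day 11 it rose by 1.43 (SE 0.08, adjusted p 4.84e-11), a 2.70-fold level, and ended 0.69 above day 0 (adjusted p 8.84e-07). Its rise of 0.24 from day 3 to day 7 (adjusted p 0.0173) was lost without control replicate 1 of day 3 (0.0559), control replicate 2 of day 3 (0.0608) or control replicate 4 of day 7 (0.0571), and in the fit of all 32 libraries (0.117).

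Igf1r (ENSMUSG00000005533), the signalling receptor, spans chromosome 7 from 67952827 to 68233668, plus strand, in 21 exon blocks. At day 3 it was at 11.12, 11.08, 11.08 and 11.20 in control libraries and at 10.81, 10.86, 10.85 and 10.84 in knockdown libraries. The 4 knockdown values lay close together and below all controls, with either shRNA. Igf1r fell by 0.28 on the log2 scale (SE 0.04, limma adjusted p 4.11e-04). Adipocyte marker means were also apart at day 3 (8.76 to 9.04 in knockdown, 7.80 to 7.98 in control libraries). Their part in the day 3 results, here and for Igfbp6 below, was not tested.

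At day 7 the Igf1r values were 10.77, 10.96, 10.86 and 10.80 in control and 10.71, 10.73, 10.65 and 10.59 in knockdown libraries. The groups lay close to each other without overlap, with a difference of -0.18 (SE 0.06, adjusted p 0.0163). Without control replicate 2, the highest, it was -0.14 and not called (adjusted p 0.065). Differences of 0.07 and -0.03 at days 0 and 11 were not called (adjusted p 0.473 and 0.799).

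The Igf1r difference had moved from day 0 by -0.35 at day 3 (SE 0.08, adjusted p 0.00807) and by -0.25 at day 7 (SE 0.08, adjusted p 0.023). The latter call was lost without control replicate 1 of day 0 (0.0502), shRNA 2 replicate 2 of day 7 (0.0526) or control replicate 2 of day 7 (0.0621). In control cells Igf1r fell by 0.30 to day 3 (adjusted p 4.98e-06) and by 0.58 to day 7, both from day 0 (SE 0.05, adjusted p 2.57e-11). From day 7 to day 11 it rose by 0.18 (adjusted p 0.00472).

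Igf2r (ENSMUSG00000023830), on chromosome 17 from 12682406 to 12769664, minus strand, in 49 exon blocks, had the highest deposited values of the 3 ligand and receptor genes. At day 11 control libraries were at 13.20, 13.18, 13.18 and 13.27 and knockdown libraries at 13.10, 12.85, 12.99 and 13.08. All knockdown values were lower, by 0.20 in the mean (SE 0.06, limma adjusted p 0.0266). Leaving out control replicates 1 to 4 in turn ended the call, with adjusted p of 0.0638, 0.0509, 0.0541 and 0.0785. At day 7 the Igf2r values overlapped (12.90 to 13.10 in control, 12.79 to 12.98 in knockdown), and the difference of -0.15 had an adjusted p of 0.0487. That call was lost without any of 6 of the 8 libraries, and the adjusted p ran from 0.0143 to 0.158 over the 8. It was lost as well with no filter (0.0806) and without trend and robust fitting (0.102).

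Days 0 and 3 gave differences of 0.05 and 0.04 for Igf2r, not called (adjusted p 0.698 and 0.633). The change of its difference from day 0 to day 11 was -0.25 (SE 0.09, adjusted p 0.0327), and 6 of the 16 libraries each ended that call when left out, with adjusted p up to 0.0942. In control cells Igf2r fell by 0.87 from day 3 to day 7 (SE 0.05, adjusted p 6.37e-16), and it regained 0.20 by day 11 (adjusted p 6.71e-04). Its rise of 0.19 from day 0 to day 3 (adjusted p 5.97e-04) was 0.06 and not called when libraries were scaled to equal totals (adjusted p 0.233), and 0.07 by voom on rebuilt reads (adjusted p 0.231). Scaling to equal totals shifted the median of all genes by -0.12 in this comparison, and it ended no other call of the 7 genes in the control time course.

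Igfbp6 (ENSMUSG00000023046), whose product binds IGF2 more tightly than IGF1, lies on chromosome 15 from 102144362 to 102149511, plus strand. Its libraries held 123 to 515 reads, the fewest of the 7 genes. At day 3 it was at 7.94, 7.92, 8.00 and 7.98 in control libraries, 7.47 and 7.33 with shRNA 1 and 7.50 and 7.24 with shRNA 2. All 4 knockdown libraries were lower, by 0.58 in the mean (SE 0.09, limma adjusted p 3.09e-04), and the knockdown level was 0.670 of control.

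At day 0 the 2 shRNAs parted for Igfbp6. Control libraries were at 8.68, 8.47, 8.56 and 8.48, those of shRNA 1 at 8.64 and 8.67 and those of shRNA 2 at 7.60 and 7.80. The shRNA 1 libraries lay within the control range and the shRNA 2 libraries well below it, and the difference over both shRNAs was -0.37 (SE 0.24, adjusted p 0.437). With the shRNAs as separate groups that value was called (adjusted p 3.07e-04). Against control, however, shRNA 1 stood at 0.11 and shRNA 2 at -0.85, so that call does not stand for both. The mean over 12 interferon response genes was 10.13 and 9.86 with shRNA 1, 9.34 and 8.95 with shRNA 2 and 9.83 to 10.32 in controls of this day, and its part in the result was not tested. Differences of -0.13 and 0.21 at days 7 and 11 were not called (adjusted p 0.26 and 0.232). Without control replicate 4 of day 11, whose value of 8.71 was the highest there, the day 11 difference was 0.34 (adjusted p 0.0281). In control cells Igfbp6 fell by 0.59 from day 0 to day 3 (adjusted p 2.85e-06) and rose by 0.71 to day 7 (adjusted p 1.34e-07). It then fell by 0.35 to day 11 (adjusted p 0.00269), a call lost in the fit of all 32 libraries (0.0717). Day 11 differed from day 0 by -0.24 (adjusted p 0.0352), and this call was lost without any of 5 of the 8 libraries (adjusted p up to 0.179), with no filter (0.0567), without trend and robust fitting (0.0714) and in the fit of all 32 libraries (0.213).

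Igfbp7 (ENSMUSG00000036256) encodes a secreted protein of this family that binds IGFs weakly and is also a basement membrane component. It lies on chromosome 5 from 77349240 to 77408041, minus strand, and 7.0% of its exon bases overlap Polr2b on the other strand. At day 7 control libraries were at 14.20, 14.25, 14.35 and 14.34 and knockdown libraries at 14.19, 14.00, 14.13 and 14.12. The groups met at their edges, with a difference of -0.18 (SE 0.06, limma adjusted p 0.0153). The call was lost without shRNA 1 replicate 2 (0.0503), control replicate 3 (0.0517) or control replicate 4 (0.0567). Differences at days 0, 3 and 11 were -0.10, 0.07 and 0.10, none called (adjusted p 0.343, 0.313 and 0.472). In control cells Igfbp7 rose by 1.15 from day 0 to day 7 (SE 0.04, adjusted p 1.10e-22), a 2.22-fold level, and dropped by 0.18 to day 11 (adjusted p 3.11e-04).

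Igfbp2 and Igfbp5, neighbours on chromosome 1 that are 5458 bases apart on opposite strands, were hardly covered. No library had more than 3 reads of Igfbp2, so each group was at or under the floor of 3 reads and no difference can be given. Igfbp5 had 0 to 18 reads. Its highest counts were those of shRNA 2 at day 3, 18 and 16 reads, beside 10 to 14 in control libraries and 6 and 3 with shRNA 1 of that day. No test was made for either gene.

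The 2 shRNAs differed from each other for several of the genes. At day 0, 4 of the 7 were called between shRNA 2 and shRNA 1, with 35.0% of all genes called. They were Igfbp6 (-0.96, SE 0.10, limma adjusted p 1.46e-08), Igf1 (0.34, adjusted p 9.39e-06), Igfbp3 (-0.31, adjusted p 5.00e-06) and Igfbp4 (0.20, adjusted p 0.00691). The Igfbp4 call was lost without shRNA 1 replicate 2 (0.0605) or shRNA 2 replicate 1 (0.0852). A fit of the knockdown libraries alone, to which the 35.0% does not apply, added Igf1r (0.11, adjusted p 0.0362), Igf2r (0.10, adjusted p 0.00876) and Igfbp7 (0.09, adjusted p 0.0376). Igf2r was also called without control replicate 4 (0.0444). Both shRNAs nevertheless stood far from control for Igfbp4, at -1.06 for shRNA 1 and -0.86 for shRNA 2.

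At day 3, 4 of 7 were called between the shRNAs (19.6% of all genes), namely Igfbp3 (-0.47, adjusted p 2.35e-07), Igfbp4 (0.31, adjusted p 1.70e-06), Igf2r (0.17, adjusted p 0.00641) and Igf1 (0.45, adjusted p 0.0381). Leaving out any of the 4 knockdown libraries ended the Igf1 call (adjusted p 0.0523 to 0.201), and the Igf2r call was lost without replicate 1 of shRNA 1 (0.0521) or of shRNA 2 (0.104). Both calls were also lost with no filter (0.095 for Igf1 and 0.051 for Igf2r) and without trend and robust fitting (0.0973 and 0.119). At day 7 limma called 0 of 7 (16.4% of all genes), with 2 of 7 at an unadjusted p under 0.05 (29.2% of all genes) and 0 called by voom on rebuilt reads. Igfbp3 was called at that day without shRNA 1 replicate 1 (0.48, adjusted p 2.16e-04).

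At day 11, 3 of 7 were called, all higher with shRNA 2 (22.0% of all genes, 11.6% higher). They were Igf1 (0.51, adjusted p 0.00742), Igfbp7 (0.39, adjusted p 7.74e-04) and Igfbp4 (0.23, adjusted p 0.0342). The Igf1 call was lost without shRNA 2 replicate 1 (0.0609), and the Igfbp4 call without shRNA 1 replicate 2 (0.278), shRNA 2 replicate 1 (0.0662) or shRNA 2 replicate 2 (0.18). The Igfbp4 call was lost too with no filter (0.0695), with libraries scaled to equal medians (0.0563), without trend and robust fitting (0.115) and in a fit of the knockdown libraries alone (0.0887). Igf1r, not called at this day, was called without control replicate 4 (0.0352). Igfbp7 was at 14.07 and 13.95 with shRNA 1, 14.46 and 14.34 with shRNA 2 and 14.07 to 14.14 in controls. The shRNA 2 libraries were above all controls. At this day the mean over 12 interferon response genes was 8.27 and 8.24 with shRNA 1, 10.50 and 10.06 with shRNA 2 and 10.57 to 10.76 in controls, and that of preadipocyte and fibroblast markers was 11.85 and 11.55, 12.26 and 12.11, and 12.38 to 12.55. Their part in these differences was not tested.

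**Figure D3:**
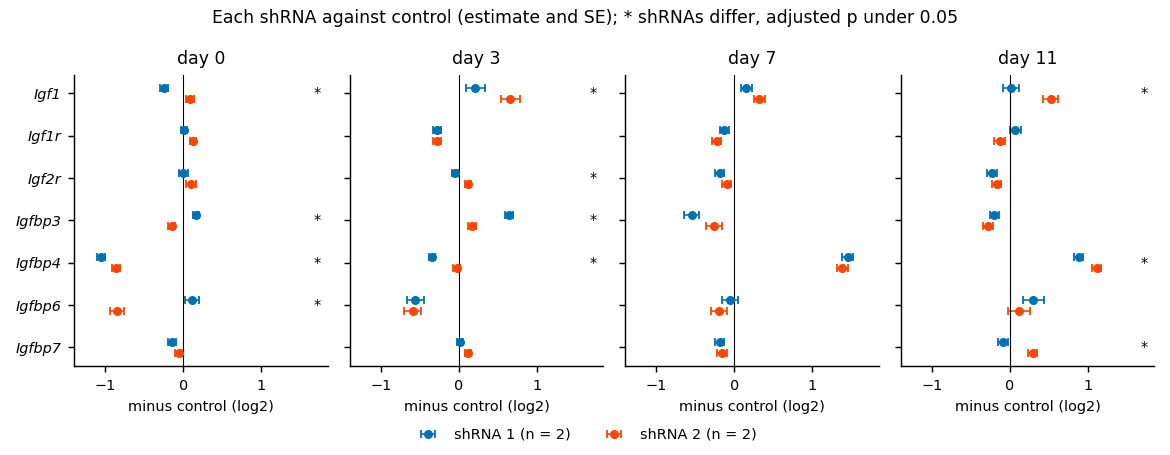
Difference of each shRNA from control (log2, horizontal axis) for the 7 genes tested, in 1 panel per day, with 2 libraries per shRNA and 4 controls. Points are limma estimates, lines are 1 standard error either way and stars mark genes for which the shRNAs differ from each other at adjusted p under 0.05. For Igfbp4 both shRNAs lie at -1.06 and -0.86 at day 0 and at 1.45 and 1.38 at day 7, and for Igfbp6 they part at day 0, at 0.11 and -0.85.

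Levels can be compared between genes only per length, and for that reads per kilobase of exon, scaled to library depth (RPKM), were computed. In control cells of day 0 the order was Igfbp7 at 299.6 ± 22.8 (SD, n = 4), Igf2r at 57.9 ± 4.32, Igfbp3 at 34.2 ± 1.07, Igfbp4 at 16.7 ± 0.609, Igfbp6 at 14.0 ± 1.19, Igf1 at 7.25 ± 0.261 and Igf1r at 6.72 ± 0.258. Igf1 and Igf1r overlapped between libraries, and the other neighbours in that order did not. In knockdown cells of day 0, Igfbp4 at 8.50 ± 0.732 RPKM and Igfbp6 at 11.4 ± 4.72 overlapped. The shRNAs gave opposite orders there, with Igfbp4 at 7.88 and Igfbp6 at 15.5 RPKM for shRNA 1, and 9.11 and 7.39 RPKM for shRNA 2, which is the order of the controls.

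At day 3 Igfbp4 was second to Igfbp7 in control cells, at 214.8 ± 3.97 RPKM against 340.2 ± 10.6, with Igfbp3 at 166.9 ± 11.98 and no overlap. In knockdown cells Igfbp3 at 224.6 ± 44.1 and Igfbp4 at 188.7 ± 23.7 overlapped. With shRNA 1 Igfbp3 was the higher (262.6 against 169.1 RPKM), and with shRNA 2 Igfbp4 was (208.4 against 186.4 RPKM), as in the controls. At day 7 Igfbp4 stood at 44.4 ± 3.41 in control and 118.5 ± 6.67 RPKM in knockdown cells. By day 11 it was at 61.9 ± 3.35 and 124.2 ± 13.5 RPKM. Igfbp3, at 166.3 ± 7.67 RPKM, did not overlap it in control cells, while in knockdown cells Igfbp3 at 137.8 ± 10.2 did.

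The 6 binding protein genes summed to 364.5 ± 24.6 RPKM in control and 339.2 ± 7.80 RPKM in knockdown cells of day 0 (SD, n = 4). At day 3 it was 730.1 ± 20.2 and 773.9 ± 14.3 RPKM, with all knockdown libraries above all controls. The sum was 972.9 ± 34.1 and 881.0 ± 63.7 RPKM at day 7 and 816.0 ± 14.4 and 888.9 ± 114 RPKM at day 11. Igfbp7 had the largest share of it, with 82.2%, 46.6%, 66.5% and 70.6% of the control sum at days 0, 3, 7 and 11 and 83.8%, 45.9%, 62.9% and 68.8% of the knockdown sum. Igfbp4 made up 4.58% ± 0.224 in control and 2.51% ± 0.231 in knockdown cells at day 0, and 29.4% ± 1.22 and 24.4% ± 3.20 at day 3. At day 7 its share was 4.57% ± 0.348 in control and 13.5% ± 1.37 in knockdown cells, and at day 11 it was 7.59% ± 0.507 and 14.0% ± 0.822. The shares of the 2 arms did not overlap at days 0, 3, 7 and 11. These sums are over RNA and say nothing of protein, and they were not tested.

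**Figure D4:**
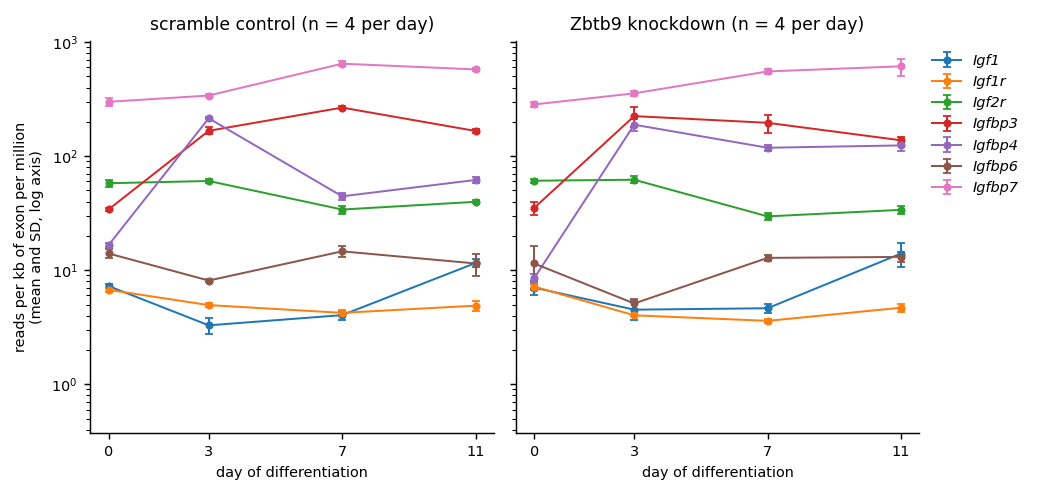
RPKM (vertical log axis) of the 7 genes against day of differentiation (horizontal axis), in control and knockdown cells. Points are means of 4 libraries and bars are the SD. Igfbp4 drops from 214.8 to 44.4 between days 3 and 7 in control cells and from 188.7 to 118.5 in knockdown cells.

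Other genes of the IGF system were taken from a list of 11, of which 9 are in the table and 7 passed the filter. Over all genes tested, 0.817%, 14.6%, 24.9% and 16.8% were higher under knockdown at days 0, 3, 7 and 11, and 2.44%, 12.1%, 22.6% and 16.2% were lower. In the list, the counts higher and lower were 0 and 1 at day 0, 2 and 1 at day 3, 1 and 3 at day 7 and 3 and 0 at day 11. Pappa, the protease that cuts IGFBP4, was 0.23 higher at day 3 (SE 0.06, limma adjusted p 0.00826) and 0.55 lower on the log2 scale at day 7, at 8.89 ± 0.21 in knockdown and 9.44 ± 0.05 in control libraries (SD, n = 4). Pappa2, a related protease that cuts IGFBP3 and IGFBP5, was at 6.29 ± 0.37 and 7.13 ± 0.29 at day 3. Stc1, whose product stanniocalcin inhibits that protease family, was lower at day 0, at 7.29 ± 0.27 against 7.96 ± 0.10. The insulin receptor gene Insr was higher at day 7 (11.83 ± 0.13 against 11.30 ± 0.04).

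Igfals, for the acid-labile subunit that joins IGFBP3 and IGF in a larger complex, was higher at day 3 (4.32 ± 0.16 against 3.87 ± 0.15) and at day 11 (8.07 ± 0.76 against 6.27 ± 0.23). The ligand gene Igf2 was called at day 11 alone, at 5.49 ± 0.65 in knockdown and 4.13 ± 0.21 in control libraries, a difference of 1.36 (SE 0.28, limma adjusted p 0.00497). The shRNAs differed at that day for 6 of the 7 genes, with 4 higher and 2 lower with shRNA 2 and a median of 0.83 (-0.01 over all genes, of which 22.0% were called and 11.6% called higher). Among them were Igfals (1.26, SE 0.18, adjusted p 1.62e-04) and Igf2 (0.96, SE 0.23, adjusted p 0.0075). Htra1, a serine protease that can cut IGFBP5, was lower at day 7 (4.86 ± 0.11 against 5.29 ± 0.26). The median difference of the 7 was -0.26, 0.06, -0.17 and 0.26 over the 4 days. Igfbpl1 and Insrr were not analysed here.

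CCN genes encode matricellular proteins whose first domain is of the IGF-binding protein type, and 5 of 7 listed were tested. Higher and lower counts were 0 and 2 at day 0, 0 and 1 at day 3, 2 and 1 at day 7 and 2 and 3 at day 11. Their median difference was -0.10, -0.05, -0.03 and -0.31 at the 4 days. Ccn3 was lower at days 0, 7 and 11, by -0.70, -1.49 and -1.26, with day 7 values of 7.24 ± 0.39 in knockdown and 8.72 ± 0.21 in control libraries (SD, n = 4, limma adjusted p 2.32e-05). Ccn5 was lower at day 0 (-0.26) and at day 11 (-0.81, SE 0.06, adjusted p 2.17e-06). Ccn1 was lower at day 3 (-0.26) and higher at day 7 (0.45) and day 11, at 13.50 ± 0.09 against 12.34 ± 0.12 (1.16, SE 0.07, adjusted p 7.35e-07). Ccn4 was higher at day 7 (0.44) and Ccn2 at day 11 (0.53), a call that was lost without shRNA 1 replicate 2 (adjusted p 0.0566).

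Of 24 listed genes that carry the signal of the IGF1 and insulin receptors, 22 were tested. At day 0 limma called none, with 5 at an unadjusted p under 0.05 (19.7% of all genes tested) and 0 called by voom. The counts higher and lower were 3 and 4 at day 3, 4 and 7 at day 7 and 4 and 6 at day 11. The median difference of the 22 lay between -0.04 and 0.00. Foxo1, a transcription factor held out of the nucleus by this signal, was higher at day 7 (0.53, SE 0.05, adjusted p 1.28e-06) and day 11 (0.63, SE 0.07, adjusted p 4.01e-05). Foxo3 was lower at day 7 (-0.30) and higher at day 11 (0.43). Pik3r1, the main regulatory subunit of phosphoinositide 3-kinase, was higher at day 3 (0.36), and the second subunit gene Pik3r2 was lower at day 7 (-0.36) and day 11 (-0.29). The receptor substrate Irs2 was higher at day 3 (0.21), and the adaptor Grb14, which restrains the insulin receptor, was lower (-0.56). Mapk3, a MAP kinase, was lower at day 3 (-0.31) and day 11 (-0.26), and the catalytic subunit Pik3cb was higher at day 7 (0.42).

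Growth hormone raises Igf1 expression through JAK2 and STAT5, and 10 genes of that axis were tested. At day 0 limma called none of them, with 4 at an unadjusted p under 0.05 (19.7% of all genes tested) and 0 called by voom. The counts higher and lower were 3 and 2 at day 3, 2 and 2 at day 7 and 2 and 1 at day 11, and the median difference of the 10 lay between 0.00 and 0.09. The receptor gene Ghr was higher at day 3, at 14.98 ± 0.08 in knockdown and 14.55 ± 0.07 in control libraries (SD, n = 4, limma adjusted p 3.75e-05), and at day 11 (0.32, adjusted p 0.0462). Stat5a was lower at day 3 (-0.33) and Stat3 likewise (-0.18). Among feedback inhibitors, Socs2 was higher at days 3 and 7 (0.22 and 0.35), Cish was higher at days 7 and 11 (0.40 and 0.77), and Socs1 was lower at day 7 (-0.82, SE 0.11, adjusted p 1.43e-05). Socs3 was lower at days 7 and 11 (-0.14 and -0.26).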

How the data were processed

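RNA-seq of 32 libraries was used as the 1 deposited table of 20560 genes. Although it is named normalized counts, the authors' deposited values are on a log2 scale (-1.56 to 17.99). Their form is like a regularized log transform, which draws genes, most of all those with few reads, towards their mean. Per the submitters' processing notes, TopHat2 2.1.0, Bowtie2 2.2.6, SAMtools 1.3.1 and HTSeq 0.6.1 were used. The build, annotation, strand setting and transform are not given in the sources used here.

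limma 3.58.1 (R 4.3.3) with trend and robust empirical Bayes was fitted to the values as deposited, over all genes past the filter. Each day was fitted with 4 knockdown and 4 control libraries, the shRNAs as 3 groups per day, the control time course on 16 libraries and changes between days on all 32. Whole reads were rebuilt by inverting the transform. Rebuilt values lay at most 0.1 from a whole read in 97.5% of cases (chance gives 20%). Library depth, read numbers and RPKM (with exon lengths of GENCODE M21, where 20521 IDs matched) come from these reads. Counting floors cover counting error only.

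limma was also run on simulated day 7 reads with 200 changed genes of 13267 tested. It recovered 100% of changes of 1 and 80% of changes of 0.5 (log2), with 4.76% of calls false. The simulated knockdown libraries had a common mean and spread, without a difference between shRNAs. In the data 16.4% of genes were called between shRNAs at day 7 and 47.6% between knockdown and control. The simulated rates therefore do not carry over to the tests above. The 32 replicate pairs differed by more than sampling noise (chi-square per degree of freedom 3.00 to 11.8), so none was taken as a repeat.

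The 9 genes, the other gene lists and the tests were chosen with earlier results of these data known. All 9 genes and Zbtb9 are named whatever their values. Of the IGF system, CCN, signalling and growth hormone lists, the called genes with the 2 largest rises and 2 largest falls per day are named. For like patterns, the 2 genes with the highest Pearson correlation over 12 group means are named. Alternatives were other filters, scalings, fits, a pseudocount of 1, voom on rebuilt reads, a replicate block and leaving out each library.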

Additional observations from a re-analysis of the deposited data

Results flagged for a closer look

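In 72 groups of 4 libraries, the highest or lowest library stood apart from the other 3 by Dixon's criterion in 2, and chance gives about 1 in 20. Igfbp3 in control cells of day 7 had its highest library at 14.40, with 0.86 of the group's range between it and the next. Igfbp2 in control cells of day 7 had its highest library at -0.96 (0.91 of the range), a value that stands for 0 reads, as in the other 3.

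The knockdown difference changed between days, by limma's test of that change over all 32 libraries, for 4 genes. For Igfbp4 the move from day 0 was 0.77 to day 3, 2.37 to day 7 and 1.95 to day 11, with adjusted p of 1.73e-05, 8.67e-17 and 9.07e-15. For Igf1r it was -0.35 to day 3 and -0.25 to day 7, with adjusted p of 0.00807 and 0.023. Igfbp3 moved by -0.41 at day 7 (adjusted p 0.0371), and Igf2r by -0.25 at day 11 (adjusted p 0.0327). These comparisons share the day 0 libraries.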

How the results depend on the processing

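Over 2100 alternative values of the 7 genes tested, 1973 kept their side of the threshold, 79 lost a call, 48 gained one and no called value changed sign. Counts of called genes moved more. Knockdown against control at day 0 called 430 genes, 261 without trend and robust fitting, 3340 with the shRNAs as separate groups and 111 to 562 with 1 library left out. With separate groups, 5311 were called at day 3 in place of 3506, and the change of the difference from day 0 was called for 2484 genes at day 3 (892) and 4865 at day 11 (3145). Between the shRNAs at day 3 (2572), no filter gave 1710, no trend and robust fitting 1454 and leaving out 1 library 1633 to 2592. At day 7 (2183) no trend and robust fitting gave 1035 and leaving out 1 library 1003 to 2385, and at day 11 (2916) the knockdown libraries alone gave 1868 and leaving out 1 library 1479 to 2928. The cause was not tested.

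Scaling to equal totals moved the share of called genes that were higher by over 10 points in 6 comparisons. It went from 25.1% to 43.3% for knockdown at day 0, from 45.8% to 61.9% between shRNAs at day 7 and from 50.1% to 38.6% for day 3 against day 0 in control cells. For the change of the difference it went from 56.2% to 42.4%, 56.0% to 40.7% and 53.6% to 40.1% at days 3, 7 and 11.

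Replicate numbers are shared by the groups, but deviations of same-numbered libraries correlated at -0.01 to 0.21 between knockdown and control, and 3 of 16 pairs were over 0.1. All 3 were at day 11 (0.21, 0.14 and 0.13), where the fourth pair was at 0.00, so the numbers were not taken as pairs at any day. With a replicate block, 0, 845, 4112 and 1652 genes were called between knockdown and control at days 0, 3, 7 and 11. Under the block the Igfbp4 difference at day 0 was -0.98 (SE 0.09) with an adjusted p of 0.288, and the day 7 calls of Igf1, Igf1r, Igf2r and Igfbp7 and the day 11 calls of Igf2r (-0.18, adjusted p 0.226) and Igfbp3 (-0.25, adjusted p 0.104) were lost. Between the shRNAs the block added Igf2r at day 0 (0.0293), Igfbp3 at day 7 (0.00539) and Igf1r at day 11 (0.0315). Few reads limit Zbtb9, Igfbp2 and Igfbp5. The transform understates the log2 differences of these genes and, as the simulated reads showed, those of genes with more reads too.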

Other observations

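The genes whose pattern was most like each member's were found by Pearson correlation over the 12 means of shRNA 1, shRNA 2 and control by day, among 5649 genes whose means ranged over at least 1 on the log2 scale. The 12 means are not independent samples of a condition, and the correlations are descriptions. For Igfbp4 they were Mfsd8 and Snupn (both 0.97), and for Igfbp3 Adamts15 (0.98) and Ifi207 (0.97). Igf1 was most like Htr2a (0.94) and Zhx2 (0.90). The receptor gene Igf1r was most like Pakap and Efna4 (both 0.97), and Igf2r most like Mast4 (0.99) and Slc10a3 (0.98). For Igfbp6 they were Wdr31 (0.93) and Has2os (0.90), and for Igfbp7 Slit3 (0.98) and Sil1 (0.97).

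RNA of the binding protein genes summed to 225.7 ± 29.5 times that of Igf1 per length in control cells of day 3 and 176.8 ± 36.5 times in knockdown cells (SD, n = 4), with overlapping libraries. At day 7 the ratio was 242.4 ± 22.1 in control and 190.5 ± 13.7 in knockdown cells, and the libraries did not overlap. Day 0 gave 50.3 ± 3.42 and 49.0 ± 6.96, and day 11 gave 70.9 ± 6.10 and 64.9 ± 8.04. The ratio was not tested.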
